A study of Mus musculus with 6 samples.

Results

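The genes described here are the numbered zinc finger protein genes of the mouse, those whose symbol is Zfp followed by a number only. The authors' table of expressed genes held 277 of them among its 11221 genes, and all 277 were above 1 CPM (reads scaled by library size) in each of the 6 libraries. The count tables behind it listed 46983 genes, of which 373 had such a symbol, so 96 numbered Zfp genes did not reach the authors' table. The 277 were read with their sense-strand counts in every library, and all of them were among the 12336 genes tested. The filter at 1 CPM used library size alone. Levels in CPM or RPKM printed below also carry the TMM scaling factors of edgeR, which adjust the library sizes.

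The libraries came from naïve CD4 T cells, sorted from lymph nodes of male mice as TCRb+, CD4+, CD62L+, CD44- and DAPI- cells. All mice carried Rnmt alleles with loxP sites around exon 3 (Rnmt fl/fl) on a C57B6/J background, and ages were not given in the sources used here. The 3 controls lacked the Cre transgene (CD4cre -) and the 3 Rnmt cKO samples carried it (CD4cre +), with Cre driven by Cd4 regulatory sequence so that Rnmt was lost at the double positive stage of thymic development. The comparison addresses how the RNA content of resting T cells changes without RNMT, the methyltransferase that completes the 7-methylguanosine cap of mRNA. The labels only number the samples, and the study's supplement gives the replicates as mice, so p-values are read against the spread between mice.

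Most Zfp genes encode C2H2 zinc finger proteins, in which tandem fingers, each folded around a zinc ion, read DNA sequence. Many of them also carry a KRAB box at the N-terminus, which recruits the corepressor TRIM28 and, through it, the histone H3K9 methyltransferase SETDB1. KRAB zinc finger proteins are best known for silencing endogenous retroviruses and other transposable elements, and their genes lie in rows of related copies that arose by duplication. A few Zfp genes encode proteins of other kinds, such as Zfp36 (tristetraprolin), whose CCCH fingers bind AU-rich elements and promote mRNA decay.

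The cap that RNMT methylates sits on the first transcribed base, so the annotated starts of 8 genes that differed between the groups are shown first. Each line gives 15 bases before the start in lower case and the first 15 transcribed bases in capitals, from the RefSeq annotation of GRCm38.p6. Zfp827, Zfp946, Zfp3 and Zfp287 were lower in Rnmt cKO cells, and Zfp330, Zfp422, Zfp36 and Zfp839 were higher.
Zfp827 (chr8:79028422-79028451, + strand): agccaggtgcacgacCAAAAAATTAAAAAA
Zfp946 (chr17:22424187-22424216, + strand): ggaaccacgtgaccgGAACCGGGGCCGTAG
Zfp3 (chr11:70764432-70764461, + strand): gtaccggaagtggccGGCGTGGGTCGCCCG
Zfp287 (chr11:62731882-62731911, - strand): tccactagcacatgcGCAGTGGCGCCGAGG
Zfp330 (chr8:82774131-82774160, - strand): ctgacatagcaggatATCCGGTCTCGCTCC
Zfp422 (chr6:116628687-116628716, - strand): ctgccgtaaatgggtGAGGGAGCAGGTGCA
Zfp36 (chr7:28379214-28379243, - strand): ctgcgaaccgacagtCGGTCTCTTCACCAA
Zfp839 (chr12:110850264-110850293, + strand): ttccgccccgcccctACAGACGACACGGGT

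Of the 277 genes, 234 had an entry in the RefSeq table of starts and 194 of them had a single start. By this annotation, the first base was G in 85, A in 60, C in 27 and T in 22. The starts used in these cells were not measured here. C was the first base of 13.9% of the numbered Zfp genes and of 15.4% of the 6772 tested genes with a single start. A start with C followed by at least 4 pyrimidines was present in 7 of the 194 (3.61%), against 2.48% of the 6772. Grouped by first base, 3 of 27 C starts were lower and 1 was higher in Rnmt cKO cells, against 8 lower and 1 higher of 85 G starts, 3 lower and 2 higher of 60 A starts and 1 called gene, lower, of 22 T starts. The edgeR exact test called 6.84% of all tested genes lower and 8.00% higher. None of the called genes with a single start had the C and 4 pyrimidine pattern.

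Gene counts ranged from 8873413 to 11277764 per library. Uniquely mapped reads in no gene made up 36.1%, 39.7% and 46.1% in the controls and 47.9%, 46.5% and 31.8% in the Rnmt cKO libraries. Rnmt cKO library 3 stood apart, since its gene counts differed from Rnmt cKO libraries 1 and 2 by a chi-square of 22.1 and 22.9 per degree of freedom, while those differed from each other by 3.64. To a smaller degree control library 1 also stood apart. It differed from control libraries 2 and 3 by 10.31 and 13.27, while those differed from each other by 4.175. Rnmt itself was at 51.5, 58.7 and 57.9 CPM in the controls and at 42.0, 37.5 and 26.6 CPM in Rnmt cKO cells (log2 fold change -0.67, SE 0.20, adjusted p = 0.00035, edgeR exact test). The defining genes of the sorted cells were abundant, Cd3e at 151 and Cd4 at 669 CPM on average in the controls. Of the markers of other cells, Cd8a and Cd8b1 were both lower in Rnmt cKO cells (summed 21.7 to 23.3 CPM in the controls, 13.5 to 17.3 in Rnmt cKO), 4 of 6 B cell genes were higher (34.2 to 40.3 against 43.7 to 74.9 CPM), and of 4 myeloid genes 2 passed the filter on low counts and 1, Lyz2, was higher, with Cd14 at 0 in 5 of the libraries. All 7 proliferation genes were higher, at a summed 65.9 to 80.1 CPM in the controls and 295 to 327 CPM in Rnmt cKO cells. In bulk RNA, fewer cells of a type and less RNA per cell cannot be told apart, and the part of these markers in the results was not tested.

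The numbered Zfp genes were expressed at low to middling levels. Per kilobase of exon (RPKM), their control levels ran from 0.353 to 51.3 with a median of 5.44, against a median of 6.65 over all tested genes, and 159 of the 277 lay below that median. Together they took 0.990% to 1.21% of the gene counts of a library. The highest control levels belonged to Zfp207 (51.3 RPKM), a spindle protein that binds the checkpoint protein BUB3, Zfp292 (39.9), Zfp869 (37.0), Zfp740 (30.9) and the transcriptional regulator Zfp281 (30.6). None of these 5 differed between the groups past the threshold, with log2 fold changes from -0.07 for Zfp869 to 0.24 for Zfp281 (adjusted p = 0.0783, edgeR exact test). The lowest were Zfp229 (0.353 RPKM), Zfp82 (0.390) and Zfp286 (0.458).

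Against controls, 20 of the 277 genes fell and 7 rose in Rnmt cKO cells at an adjusted p under 0.05 (edgeR exact test over all 12336 genes), and 250 were not called. The lower genes made up 7.22% of the group, where 6.84% of all tested genes were lower, so the share called lower was near the background. The higher genes made up 2.53% of the group, where 8.00% of all tested genes were higher. Before adjustment for multiple tests, 48 genes below and 13 above the control level had a p under 0.05. Over all 12336 tested genes these counts were 1448 and 1639. Without Rnmt cKO library 3, 29 were lower and 12 were higher, of which 17 and 6 were among the calls from all libraries. The direction of the split depended on the scaling: with library size in place of TMM factors 8 were lower and 19 higher (4.34% and 15.7% of all tested genes under that scaling), so that the share of calls that were lower went from 74.1% to 29.6%, and the median of all tested genes moved from 0.01 to 0.14 on the log2 scale.

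By the median fold change, the Zfp genes as a group sat slightly low relative to all genes. Their median log2 fold change was -0.08 against 0.01 over all tested genes, and the difference of the medians was -0.09 with TMM factors and also -0.09 with library size only. A fold change below 0 was found for 180 of the 277 (65.0%) and for 47.8% of all tested genes. All 3 Rnmt cKO libraries lay below all 3 controls for 74 genes (26.7%, where the share over all tested genes was 14.9%), and above them for 19 genes (6.86%, where it was 16.6%). The summed level of the 277 was 10849, 11259 and 11488 CPM in the controls and 11210, 11299 and 10541 CPM in Rnmt cKO cells, so the sums overlapped (11198 ± 324 and 11017 ± 414, SD, n = 3 each). This sum changed by -1.62%, while that of all tested genes changed by -8.25% on the same scale. As a share of the reads of all tested genes, the group was therefore not low on average. The TMM factors alone set the change of the sum over all tested genes. The sums thus cannot show how the group stands relative to the typical gene.

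**Figure D1:**
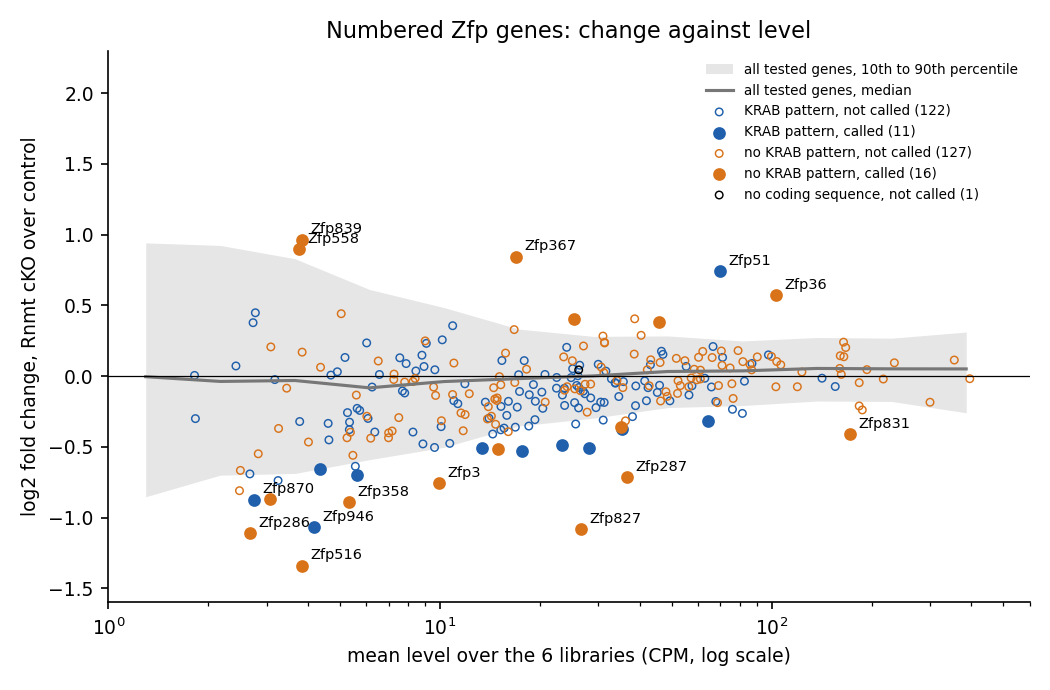
Log2 fold change of each numbered Zfp gene against its mean level (CPM, log scale), coloured by the KRAB pattern of its protein, filled where called, over the 10th to 90th percentile band and the median of all tested genes. With TMM factors 180 of the 277 points lie below 0, with library size only the median of the group is above 0 (0.05), and the 4 called genes past 1 log2 unit, all lower, are Zfp516, Zfp286, Zfp827 and Zfp946.

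By expression level the counts and medians were as follows. Among 30 Zfp genes with a mean under 5 CPM, 6 were lower and 2 higher with a median log2 fold change of -0.33. Among 99 genes from 5 to 20 CPM, 6 were lower and 1 higher with a median of -0.18. Among 148 genes at 20 CPM or more, 8 were lower and 4 higher with a median of -0.03. Over all tested genes in the same ranges, 6.20%, 8.23% and 6.51% were lower and 9.01%, 7.60% and 7.78% were higher. The filters differed, since all 277 Zfp genes were above 1 CPM in all 6 libraries and the tested genes in at least 3. Of the 11232 genes above 1 CPM in all 6 libraries, at any level, 6.70% were lower and 7.52% were higher. Scaled by library size only, the 3 medians were -0.20, -0.06 and 0.09, the last above 0, and the counts were 3 lower and 2 higher, 2 and 2, and 3 and 15. The TMM medians of all tested genes in the same ranges were -0.02, -0.04 and 0.03. Over the 277 genes the log2 fold change had a Spearman rho of 0.35 with mean CPM, against 0.08 over all tested genes, as a description of genes that share libraries.

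Among the genes that fell, Zfp516, which in brown fat acts with PRDM16 as a transcriptional activator, had the largest change. It was at 6.11, 4.19 and 6.30 CPM in the controls and at 1.48, 1.94 and 3.05 CPM in Rnmt cKO cells (52, 42 and 57 reads against 14, 23 and 34). The groups did not overlap, and the level was 2.53-fold lower (log2 fold change -1.34, SE 0.33, adjusted p = 0.000402). Zfp827, whose human counterpart recruits the NuRD complex to telomeres, was better covered, at 36.0, 31.3 and 41.1 CPM against 19.7, 15.3 and 16.4 CPM. Its lowest control was well above its highest Rnmt cKO library, and it was 2.12-fold lower (log2 fold change -1.08, SE 0.16, adjusted p = 6.48e-11).

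Zfp286 and Zfp287 lie close together on the minus strand of chromosome 11 (62752577 to 62789462 and 62700356 to 62731905, GRCm38), and both fell. Zfp287 was at 41.3, 47.3 and 48.2 CPM in the controls and at 30.8, 29.8 and 23.0 CPM in Rnmt cKO cells (log2 fold change -0.71, SE 0.15, adjusted p = 5.97e-06). Zfp286 was among the 3 lowest Zfp genes per length, with 24, 33 and 44 reads in the controls and 16, 22 and 17 in Rnmt cKO cells, or 2.82, 3.29 and 4.86 against 1.69, 1.86 and 1.52 CPM (log2 fold change -1.11, SE 0.23, adjusted p = 0.00789). Neither gene had overlapping groups. In a search of the longest transcript of each gene, 0% of the 50-base stretches of either gene occurred in another gene. Zfp3, also on chromosome 11, was at 14.6, 12.1 and 10.7 CPM in the controls and at 7.19, 7.0 and 7.89 CPM in Rnmt cKO cells (log2 fold change -0.76, SE 0.14, adjusted p = 0.00126).

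Zfp946, a KRAB gene on chromosome 17, was at 5.76, 6.49 and 4.64 CPM in the controls and at 3.17, 2.87 and 2.06 CPM in Rnmt cKO cells (log2 fold change -1.07, SE 0.22, adjusted p = 0.00142). Zfp358 was at 7.17, 7.19 and 6.41 against 3.49, 2.95 and 4.75 CPM (log2 fold change -0.89, SE 0.20, adjusted p = 0.00325). Every control of both genes was above every Rnmt cKO library. The other named falls were those of Zfp870 (log2 fold change -0.87, adjusted p = 0.0227), Zfp78 (-0.87, 0.0377), Zfp128 (-0.70, 0.0162), Zfp566 (-0.66, 0.0491) and Zfp931 (-0.53, 0.0124). Of these 5 only Zfp931 was above 10 CPM in the controls, at 20.6, 19.4 and 23.0 CPM against 14.5, 17.0 and 11.9 CPM. The remaining 8 lower genes, with log2 fold changes from -0.52 to -0.32, included Zfp831, named here after its value was seen because it had the highest level of the 20, at 189, 188 and 213 CPM against 155, 156 and 134 CPM (log2 fold change -0.41, SE 0.09, adjusted p = 0.00116).

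Among the 7 genes that rose, Zfp51, which carries a KRAB box pattern and 19 fingers, had the smallest adjusted p. It was at 52.9, 51.4 and 52.8 CPM in the controls and at 86.4, 84.8 and 91.5 CPM in Rnmt cKO cells. The libraries of each group lay close together, and the level was 1.67-fold higher (log2 fold change 0.74, SE 0.04, adjusted p = 2.64e-13). It was the only one of the 133 genes with the KRAB pattern that rose in the main test.

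Zfp36 was at 86.9, 87.6 and 74.6 CPM in the controls and at 116, 122 and 131 CPM in Rnmt cKO cells, with 675 to 1466 reads per library. The groups did not overlap, and the level was 1.49-fold higher (log2 fold change 0.57, SE 0.09, adjusted p = 1.08e-06). Zfp367 was at 10.5, 14.5 and 11.4 CPM in the controls and at 22.0, 19.6 and 23.9 CPM in Rnmt cKO cells (log2 fold change 0.84, SE 0.16, adjusted p = 1.16e-05). Zfp839 (log2 fold change 0.97, SE 0.26, adjusted p = 0.0116) and Zfp558 (0.90, SE 0.24, adjusted p = 0.0165) were near the filter on low counts, with 17 to 28 and 20 to 28 reads in the controls against 40 to 78 and 38 to 70 reads in Rnmt cKO cells. Zfp422 (log2 fold change 0.41, adjusted p = 0.0156) and Zfp330, a nucleolar protein (0.38, adjusted p = 0.00379), rose by less, and in both every Rnmt cKO library was above every control.

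**Figure D2:**
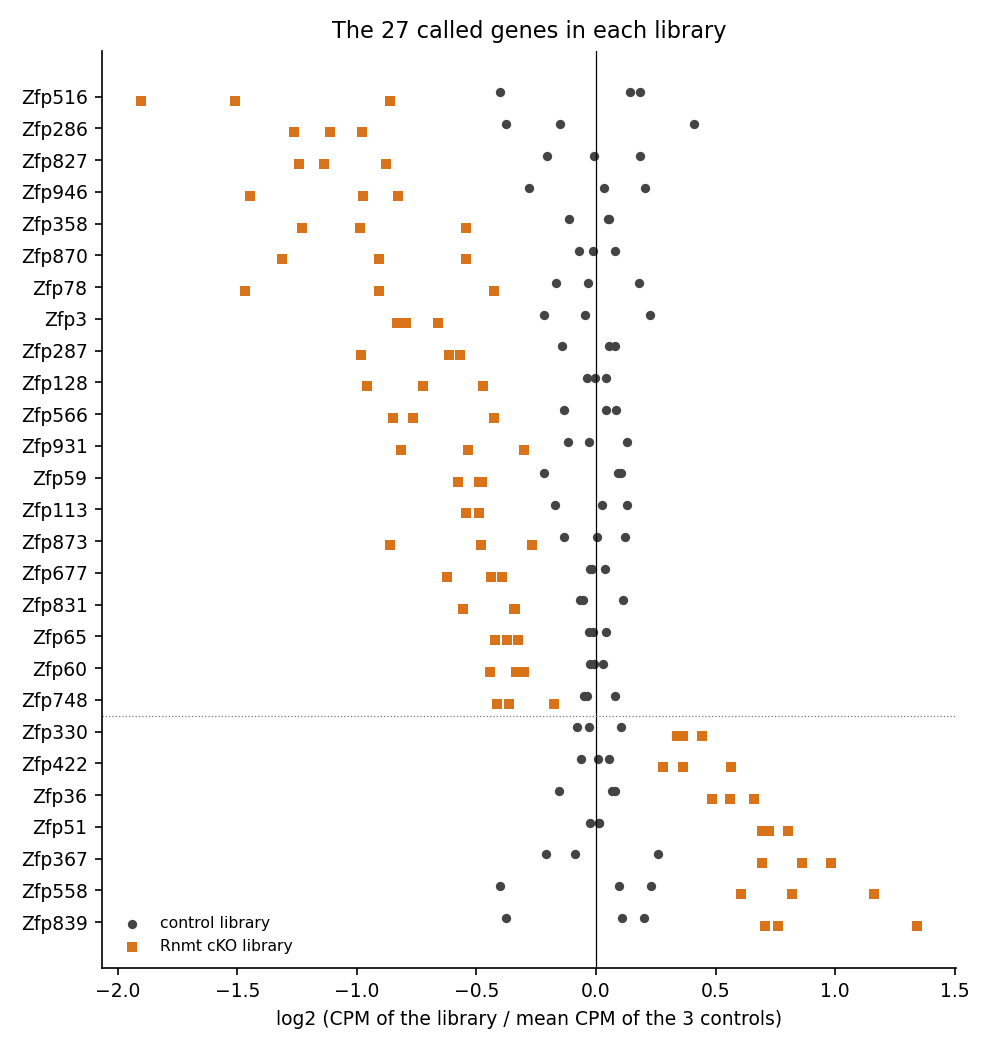
The 27 called genes in each library, as log2 of the library's CPM over the mean of the 3 controls, with controls as dots and Rnmt cKO libraries as squares. The squares lie to the left of all dots for the 20 lower genes and to the right for the 7 higher genes. With library size only 8 of the 20 and 7 of the 7 kept their call.

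Of the 27 genes, 6 were called under each of 15 other settings of the test, scaling, filter, strand and libraries, namely Zfp516, Zfp827 and Zfp287 among those that fell and Zfp51, Zfp36 and Zfp367 among those that rose. No called gene changed direction in any of the 405 gene and setting pairs, and 110 pairs were no longer past the threshold. The least stable were Zfp566, called in 3 of the 15, Zfp78 in 4 and Zfp870 in 5.

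The proteins were sorted by a KRAB box pattern (E-W, 6 to 14 residues, L, then Y, F, H or C, 2 residues and V-M) in the longest GENCODE coding sequence. The pattern was found in 133 of the 276 genes with a coding sequence and in 278 of 21580 such genes overall. Of the 133, 10 were lower (7.52%) and 1 was higher (0.752%) in Rnmt cKO cells, with a median log2 fold change of -0.12. Of the 143 without the pattern, 10 were lower (6.99%) and 6 were higher (4.20%), with a median of -0.05. Both lower shares were near the 6.84% of all tested genes, and both higher shares were under the 8.00% of all tested genes. Without TMM factors, 2 KRAB genes were lower and 2 higher, and 6 genes without the pattern were lower and 17 higher. Relative to the median of all tested genes these medians were -0.13 and -0.06 with TMM factors, and -0.13 and -0.06 with library size only, where the medians themselves were 0.00 and 0.08. Without Rnmt cKO library 3, 15 of the KRAB genes were lower and 3 were higher.

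All 3 Rnmt cKO libraries lay below all 3 controls for 40 KRAB genes (30.1%) and above them for 3 (2.26%), against 34 (23.8%) and 16 (11.2%) of the genes without the pattern, where the shares over all tested genes were 14.9% and 16.6%. The KRAB genes were summed to 3524, 3586 and 3660 CPM in the controls and to 3466, 3503 and 3216 CPM in Rnmt cKO cells, a difference of -5.42% without overlap. The sum over all tested genes differed by -8.25% on the same scale, also without overlap, a value that the TMM factors alone set. As a share of the reads of all tested genes, the KRAB sum therefore did not fall on average. The sums cannot show how the KRAB genes stand relative to the typical gene. The genes without the pattern were summed to 7583 ± 258 and 7595 ± 253 CPM (SD, n = 3 each), and their groups overlapped. The pattern is strict: a looser one, searched in every coding isoform and chosen after the data were seen, took 152 genes, among them Zfp78 and Zfp558, of which 13 were lower and 2 were higher with a median of -0.12.

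**Figure D3:**
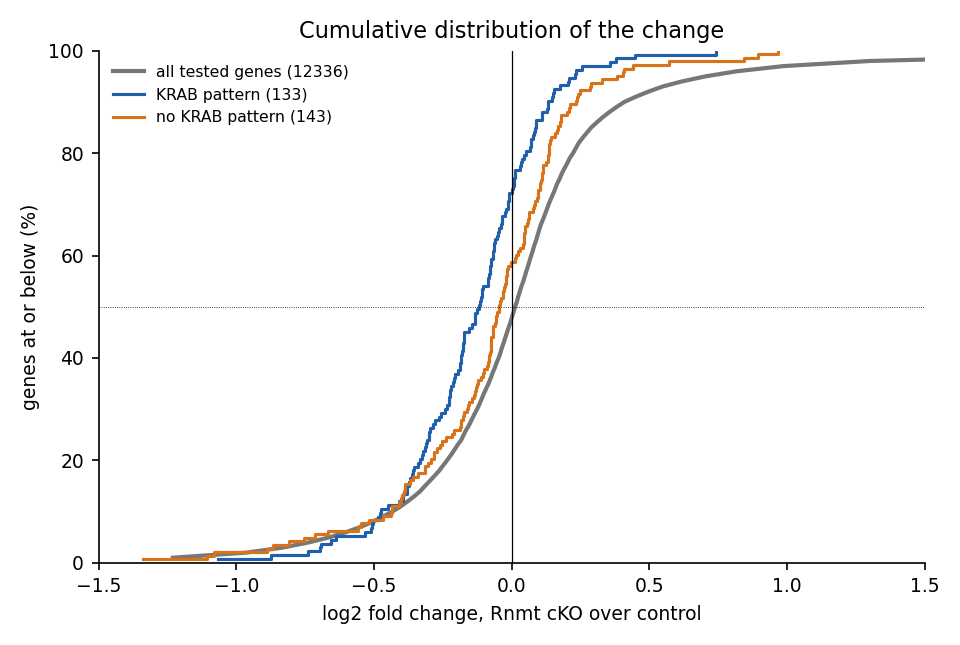
Cumulative share of genes (%) against the log2 fold change for the 133 KRAB pattern genes, the 143 genes without the pattern and all 12336 tested genes. With TMM factors the KRAB curve reaches 72.2% at 0, the curve without the pattern 58.7% and that of all genes 47.8%; with library size only the KRAB median is at 0.00 and that of all genes at 0.14.

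The difference was present in each Rnmt cKO library. The median deviation of the KRAB genes from the control mean, in log2 CPM, was -0.12, -0.06 and -0.20 in Rnmt cKO libraries 1, 2 and 3, where the controls ranged from -0.02 to 0.03. For all tested genes it was between -0.00 and 0.02 in the 3 Rnmt cKO libraries. The share of reads in no gene differed among the libraries. With that share as a covariate (quasi-likelihood test), the median log2 fold changes were -0.14 for the KRAB genes and -0.05 for the genes without the pattern. In the main test they were -0.12 and -0.05, and the cause of the difference was not tested. The genes without the pattern were at -0.04, 0.00 and -0.06 in the Rnmt cKO libraries, where the controls ranged from -0.03 to 0.01, so their groups overlapped.

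**Figure D4:**
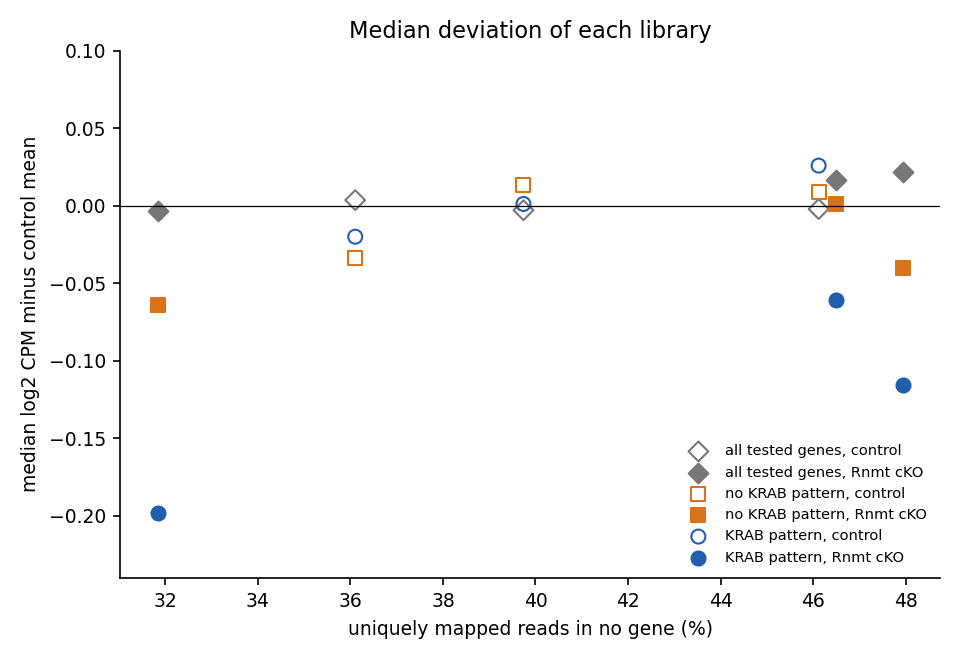
Median deviation of log2 CPM from the control mean for each library, against its share of uniquely mapped reads in no gene (%), for the KRAB pattern genes, the genes without the pattern and all tested genes. The 3 filled circles of the Rnmt cKO libraries, at -0.06 to -0.20, lie below the 3 open circles of the controls. Values are on the TMM scale, and with library size only the KRAB median is at 0.00 against 0.14 for all genes.

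The number of C2H2 fingers had a median of 10.5 and a highest value of 36. Of 14 genes with 0 or 1 finger, 0 were lower and 3 were higher by the edgeR exact test, and 1 lower and 4 higher before adjustment of the p-values (p under 0.05). Of 39 genes with 2 to 5 fingers, 1 was lower and 2 were higher, with a median log2 fold change of 0.04. The medians were -0.06 for 85 genes with 6 to 10 fingers (10 lower, 1 higher), -0.11 for 89 genes with 11 to 15 (4 lower, 0 higher, and 0 higher also at an unadjusted p under 0.05) and -0.17 for 49 genes with 16 or more (5 lower, 1 higher). These counts stand beside the 6.84% lower and 8.00% higher of all tested genes. The unadjusted counts stand beside 1448 lower and 1639 higher of the 12336 tested genes. With library size only the medians of these last 3 classes were 0.06, 0.02 and -0.05, and relative to all tested genes they were -0.07, -0.12 and -0.18. From the fewest fingers to the most, that scaling gave 0, 0, 5, 3 and 0 lower and 3, 8, 4, 2 and 2 higher genes. The counts of 0 for genes with 0 or 1 finger and with 11 to 15 fingers were also 0 in the quasi-likelihood test and in DESeq2, but with library size only 2 genes with 11 to 15 fingers were higher. The finger number had a Spearman rho of -0.24 with the log2 fold change over 276 genes, which share their libraries and many of which share ancestry. Transcript GC content, with a median of 41.1% in the KRAB genes and 49.6% in the genes without the pattern, had a rho of 0.19 with the log2 fold change, and its part in the difference was not tested. The KRAB genes were also lower in mean level, with a median of 19.1 CPM against 27.8 CPM in the genes without the pattern. Mean level had a rho of 0.35 with the log2 fold change, and its part was not tested either.

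By position, 126 of the 277 genes lay in 19 rows of at least 3 Zfp genes with gaps of at most 200 kb. In the rows 10 genes were lower and 1 was higher with a median log2 fold change of -0.13, and among the 151 genes alone or in pairs 10 were lower and 6 were higher with a median of -0.05. The lower shares, 7.94% and 6.62%, were near the 6.84% of all tested genes, and the higher shares were 0.794% and 3.97% beside 8.00%. Without TMM factors these medians were 0.00 and 0.08, or -0.14 and -0.06 relative to all tested genes, and the counts were 1 lower and 4 higher in the rows and 7 lower and 15 higher outside them. Both of the longest rows held 17 genes. In the row on chromosome 13 (67038596 to 67827002) 16 of 17 fold changes were below 0 and the median was -0.25, with Zfp748 (log2 fold change -0.32, adjusted p = 0.0219) and Zfp65 (-0.37, adjusted p = 0.00589) called; both were chosen by their place in the row. Without TMM factors the median of this row was -0.13, 13 of 17 fold changes were below 0, and neither gene was called.

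The row on chromosome 17 (21383748 to 22456689) held 17 genes, all with the KRAB pattern. It contained genes that moved in opposite directions: Zfp51 rose, while Zfp677 (log2 fold change -0.49, adjusted p = 0.00177) and Zfp946 fell, and the other 14 were not called. Scaled by library size only, Zfp677 was not called (adjusted p = 0.0539, edgeR exact test), Zfp758 was called higher (log2 fold change 0.30, adjusted p = 0.0303), and the median of the row was 0.00. The nearest neighbours of Zfp51 in the row, Zfp54 and Zfp53, were at log2 fold changes of -0.20 and -0.18 and were not called. These neighbours, named for their place, derive from related sequences. In the longest transcripts, however, 50-base stretches shared with another gene exceeded 20% in only 29 of the 277 genes. Of those 29, 1 was called, Zfp59 (52.4%, mainly with Gm7452).

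**Figure D5:**
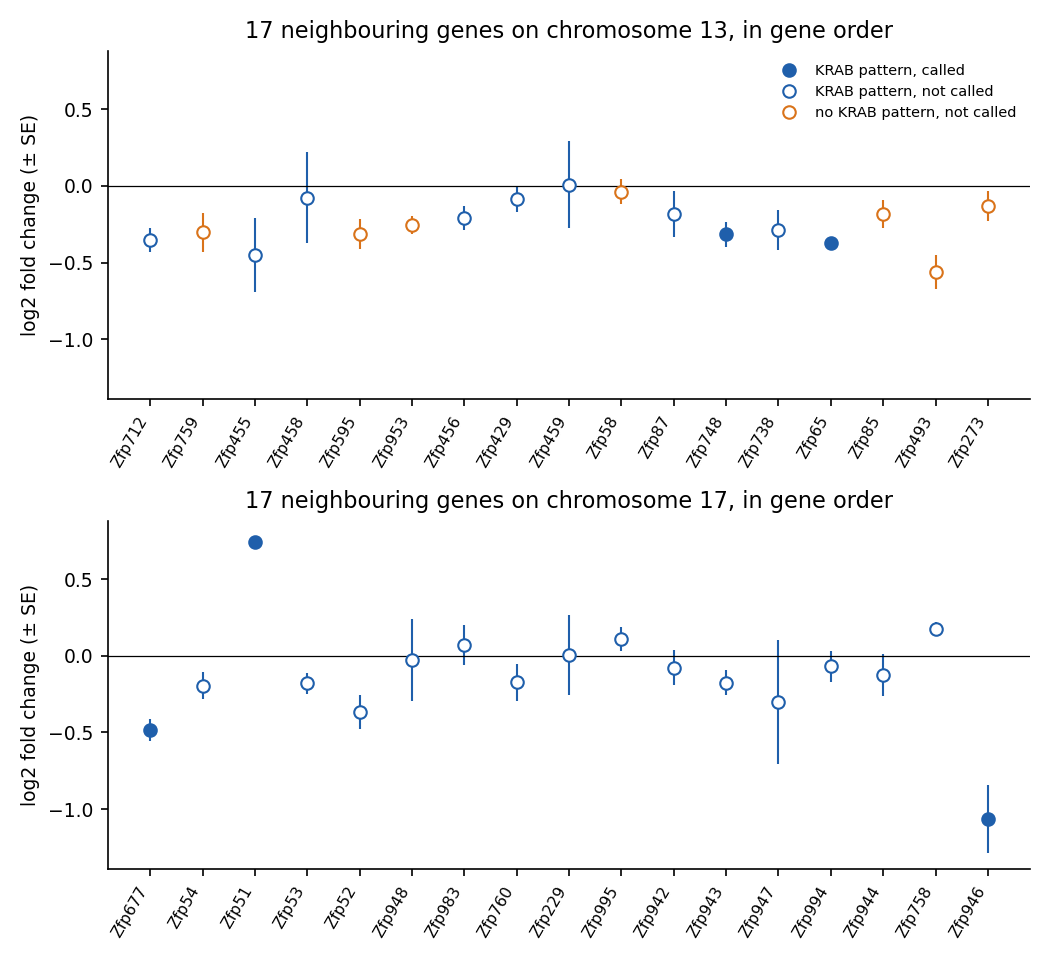
Log2 fold change with SE (TMM scale) for the Zfp genes of the rows on chromosomes 13 and 17, in gene order, with called genes filled and colours as for the KRAB pattern. In the upper row 16 of 17 genes are below 0, and in the lower row Zfp51 is above and Zfp677 and Zfp946 are below their uncalled neighbours.

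Zfp genes with known roles in RNA metabolism formed a list of 11, all tested, of which 1 was higher and 0 were lower by the edgeR exact test (before adjustment 1 lower and 2 higher with p under 0.05), with a median log2 fold change of 0.11. The quasi-likelihood test and DESeq2 gave the same counts. Of all 12336 tested genes 6.84% were lower and 8.00% higher by the exact test, and before adjustment 1448 and 1639 genes. The higher gene of the list was Zfp36. The 3 with the highest mean CPM were Zfp207 (log2 fold change 0.11, adjusted p = 0.628), Zfp638, which also takes part in silencing unintegrated retroviral DNA (-0.18, adjusted p = 0.315), and Zfp106 (-0.21, adjusted p = 0.119). Their SEs were 0.13, 0.11 and 0.06.

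Zfp genes with known chromatin or transcriptional roles formed a list of 21, of which 18 were tested. None was called by the edgeR exact test, and before adjustment 3 were higher and 0 lower with p under 0.05, with a median log2 fold change of 0.09. The quasi-likelihood test and DESeq2 also called 0 of the 18. Before adjustment, 1639 of all 12336 tested genes were higher and 1448 lower by the exact test. Scaled by library size only, 4 of the 18 were called higher, Zfp91, Zfp143, Zfp281 and Zfp410, where 15.7% of all tested genes were. Zfp644, at 219 ± 19.7 and 216 ± 28.7 CPM (SD, n = 3), Zfp592, at 191 ± 3.03 and 197 ± 10.9 CPM, and Zfp148, at 187 ± 16.5 and 181 ± 1.59 CPM, had the highest mean CPM in the list, and their groups overlapped. Among retroelement and imprinting regulators of the list, Zfp809, which silences retroviruses through their proline tRNA primer site, was at 28.2 ± 1.01 and 24.1 ± 1.75 CPM (log2 fold change -0.22, adjusted p = 0.228), and Zfp568, a repressor of an Igf2 transcript, at 26.4 ± 2.11 and 25.2 ± 1.43 CPM; both were named after their values were seen.

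The proteins that KRAB boxes act through, and the silencing factors downstream, were taken as a list of 31 genes, of which 30 were tested. Of these 1 was lower (3.33%) and 2 were higher (6.67%), beside 6.84% and 8.00% of all tested genes, with a median log2 fold change of 0.06. Without TMM factors 5 were called, all higher. Trim28, the direct partner of the KRAB box, was at 173, 173 and 152 CPM in the controls and at 137, 142 and 164 CPM in Rnmt cKO cells (log2 fold change -0.17, SE 0.10, adjusted p = 0.324), and its groups overlapped. Setdb1 was at 81.3 ± 5.93 and 86.5 ± 6.62 CPM (log2 fold change 0.09, adjusted p = 0.678). Fam208a, which encodes the HUSH complex subunit TASOR, fell from 289, 301 and 307 CPM to 234.9, 247 and 197 CPM (log2 fold change -0.40, SE 0.10, adjusted p = 0.00287). Daxx, a chaperone of histone H3.3, rose (log2 fold change 0.50, adjusted p = 0.000875), and so did Uhrf1, which brings DNMT1 to newly replicated DNA, from 7.88, 6.59 and 4.53 CPM to 21.7, 25.6 and 27.7 CPM (log2 fold change 1.98, adjusted p = 4.56e-21). The summed proliferation genes moved with Uhrf1, from 73.6 to 309 CPM on average, and their part in its change was not tested.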

How the data were processed

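The authors aligned reads from rRNA-depleted TruSeq libraries with STAR (2.5.2b, per the labels, builds mm10 and GRCm38) and deposited its count table for each sample: whole-number counts per Ensembl gene, unstranded and by strand. The sense column was used, since the authors' table of normalised values was recovered from it in every library. That table, a signal scaled to the library that the authors deposited with symbols, served for symbols and membership. Its fold change and p-value columns hold the authors' own comparison and were not used. Lines of reads in no gene (31.8% to 47.9% of uniquely mapped reads) were left out. Genes above 1 CPM in at least 3 libraries were tested with edgeR (4.0.16) by the exact test with TMM factors and tagwise dispersion, Benjamini-Hochberg adjusted over 12336 genes; the threshold was 0.05. SEs come from log2 CPM (prior count 2) of the 3 libraries per group. Printed CPM used the read total of the tested genes times the TMM factor of each library. RPKM was that CPM per kilobase of GENCODE vM21 exon length. KRAB boxes and fingers were found in translated GENCODE coding sequences, where RefSeq proteins had been planned and were not used here. The script was tested on simulated data. Named were up to 12 largest rises and falls, the 5 highest and 3 lowest levels, called genes of the role lists with their 3 highest, Rnmt, called KRAB partners with Trim28 and Setdb1. Members, lists and tests were chosen with earlier results of these data known. Alternatives were the quasi-likelihood test, DESeq2 (1.42.0), 2 scalings, 2 filters, either strand, a replicate block, a covariate and each library left out.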

Additional observations from a re-analysis of the deposited data

Results flagged for a closer look

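Reads on the opposite strand of the numbered Zfp genes lay outside the main measurement and were looked at because they differed between the groups. They made up 1.48%, 1.42% and 1.43% of the reads of both strands in the controls and 1.74%, 1.72% and 1.76% in the Rnmt cKO libraries (means 1.44% and 1.74%), without overlap. Over all genes the opposite-strand share was 4.82%, 4.74% and 4.93% in the controls and 4.97%, 4.96% and 4.47% in the Rnmt cKO libraries, with overlap. Zfp652, named after its values were seen as the largest contributor, had 206, 226 and 214 such reads in the controls and 319, 387 and 431 in the Rnmt cKO libraries. Without Zfp652 the share was 1.28%, 1.25% and 1.25% against 1.47%, 1.46% and 1.43%. Of 196 numbered Zfp genes with enough opposite-strand reads to be tested, 0 were higher and 0 lower by the edgeR exact test, where 0.439% of 14357 genes were higher; Zfp652 had a log2 fold change of 0.48 (adjusted p = 0.406, unadjusted 0.0133). Whether these reads come from antisense transcripts, from neighbouring genes or from library preparation was not tested.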

How the results depend on the processing

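The main counts were 20 lower and 7 higher Zfp genes, 10 lower and 1 higher KRAB genes, and 1 lower and 2 higher corepressor partners. With library size only they were 8 and 19, 2 and 2, and 0 and 5, the median log2 fold change of the Zfp genes was 0.049 in place of -0.08, and that of their summed level was 0.10 in place of -0.02. With the share of reads in no gene as a covariate (quasi-likelihood test) they were 45 and 12, 25 lower KRAB genes, and 4 and 4 partners. Under that setting 11.9% of all tested genes were lower and 13.7% were higher. DESeq2 gave 14 lower and 4 higher Zfp genes and 5 lower KRAB genes. The quasi-likelihood test gave 15 and 6 with 6 lower KRAB genes, and testing without a filter 6 lower KRAB genes. Over all tested genes DESeq2 called 5.17% lower and 5.69% higher, and the quasi-likelihood test 5.16% and 6.43%. Testing without a filter called 2.47% of all tested genes lower. The looser KRAB pattern, chosen after seeing the data, gave 2 higher KRAB genes. With each library left out in turn the counts were 11 to 29 lower and 3 to 12 higher Zfp genes, 4 to 15 lower and 1 to 3 higher KRAB genes, and 1 to 3 lower partners, with medians from -0.10 to -0.07 and a log2 ratio of the summed level from -0.046 to 0.0072. The highest counts, 29 and 12, and the log2 ratio of 0.0072, above 0, came without Rnmt cKO library 3; without control library 2 there were 12 and 3, without control 3 there were 11 and 6, without control 1 there were 15 and 4, and without Rnmt cKO library 2 there were 13 and 5. The replicate block gave 3 and 3 Zfp genes, 0 lower KRAB genes, and 0 and 1 partners; same-numbered libraries did not deviate together (r = -0.21, -0.02 and -0.35), so the numbers are not taken as pairs. The difference of the Zfp median from that of all genes ran from -0.11 to -0.05 over the 15 settings. Rnmt kept its direction and call in all 15. The causes of these changes were not tested. Of the called Zfp genes, Zfp566 was called in 3 of 15 settings, Zfp78 in 4, Zfp870 and Zfp873 in 5, Zfp748 and Zfp128 in 6. Depth limits the Zfp genes under 5 CPM, where a library gave 14 to 57 reads for Zfp516. The smallest p that 3 against 3 libraries allow in an exact permutation test is 0.10.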

Other observations

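Related families of DNA-binding factors stand beside the 6.84% lower and 8.00% higher of all tested genes. At an unadjusted p under 0.05, 1448 of all 12336 tested genes were lower and 1639 higher. Of 36 Zbtb genes, which pair zinc fingers with a BTB domain, 5 were lower and 0 higher by the edgeR exact test (8 and 1 at an unadjusted p under 0.05) with a median log2 fold change of -0.06. Of 18 Zscan and Zkscan genes 2 were lower and 1 was higher. Of 10 Klf genes 0 were lower and 4 were higher (1 and 4 at an unadjusted p under 0.05) with a median of 0.19. With library size only the Zbtb median was 0.06, above 0, with 2 lower and 3 higher, and the Klf median 0.31 with 0 lower and 5 higher. The quasi-likelihood test and DESeq2 also gave 0 higher Zbtb and 0 lower Klf genes. Of the 96 numbered Zfp genes not in the authors' table, 10 passed the filter used here, with 1 lower and 1 higher. Among the 250 Zfp genes that were not called, fold changes ran from -0.81 (Zfp239) to 0.45 (Zfp69), and 242 were within 0.5 of 0 on the log2 scale.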
